A study of Mus musculus with 48 samples.

Results

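The genes described here form 4 pairs on opposite DNA strands whose exons overlap, *Fars2* with *Nrn1*, *Gm11973* with *Purb*, *Gm26596* with *Atxn7l3b*, and *A830073O21Rik* with *Fam174b*, that is 8 of the 48440 genes in the count table, of which 6 passed a filter on low counts and entered the model together with 6775 other genes. They were chosen by an earlier analysis of these same counts, for the change of the first-named gene with rearing and genotype (GE1, the MS effect in *Tph2*+/- mice minus that in *Tph2*+/+ mice), so GE1, its parts, and GE2, which shares the *Tph2*+/+ mice, are given below as descriptions without a test. Total RNA was measured in the amygdala of 48 adult male C57BL/6 mice aged 4 months (a C57BL/6N background in the study's methods), sequenced paired-end from strand-marking libraries. Mice were *Tph2*+/+, *Tph2*+/- or *Tph2*-/-, the last lacking the brain form of tryptophan hydroxylase, the enzyme that starts serotonin synthesis. Each genotype was reared undisturbed (C) or with maternal separation (MS) of 3 h per day between postnatal days 2 and 15, which gave 6 groups of 8 mice. The amygdalae of both hemispheres were combined within a mouse. The labels do not say which mice shared a litter, so the p-values below measure the spread between mice as deposited.

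Many protein-coding genes are accompanied by a transcript read from the opposite strand, which can begin inside the gene or near its promoter. *Nrn1* encodes neuritin, a membrane-anchored protein that neuronal activity induces and that promotes the growth of neurites, and *Purb* encodes a protein that binds purine-rich single-stranded DNA and RNA and acts in transcription and in the transport of mRNA into dendrites. *Atxn7l3b* encodes a relative of a subunit of the SAGA histone deubiquitinase, and *Fars2* the synthetase that loads phenylalanine onto mitochondrial tRNA. *Fam174b* encodes a membrane protein. *Gm11973* is annotated as an antisense gene, while *Gm26596* and *A830073O21Rik* are loci of the GENCODE type TEC, for which experimental evidence is still awaited.

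What the rows of the table count has to be stated before their values. The libraries mark the strand, and the strand setting with which pairs were assigned to genes is not given in the sources used here. Between 75.9% and 97.6% (median 97.5%) of the uniquely placed, unambiguous pairs of a mouse fell on no gene, which left 609489 to 6296568 counts on genes per mouse. Among the 100 rows with the most counts (*Gm42418* and *Lars2* aside), 89 had exons opposite to a protein-coding gene, compared with 10.8% of all 48058 rows found in the annotation, and the 16433 protein-coding genes with no exon opposite to any gene had a median of only 0.375 counts per mouse. Whether the counts on a member's row came from its own strand or from the gene opposite to it therefore cannot be told apart from this table, and "counts of *Gm11973*" below means the counts on the row of that name. *Tph2* itself had at most 1 count in any mouse and 0 in 46, so it could not check the genotype labels.

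In GENCODE M21 on GRCm38, the *Fars2* gene (chr13:36117412-36726280, plus strand) ended 920 bases into *Nrn1* (chr13:36725361-36735131, minus strand). They shared 501 exonic bases at chr13:36725780-36726280, 22.3% of the exonic length of *Nrn1* and 8.72% of that of *Fars2*, all within the 3′ UTR of *Nrn1* and, for *Fars2*, only in the last exon of 1 noncoding transcript. *Gm11973* (chr11:6475425-6493535, plus strand) began inside the single exon of *Purb* (chr11:6467599-6475917, minus strand), with 285 shared bases that were all coding in *Purb*, 29.2% of *Gm11973* and 3.43% of *Purb*. *Gm26596* (chr10:112928501-112931155, plus strand) and *Atxn7l3b* (chr10:112925430-112929001, minus strand) overlapped head to head over 501 exonic bases, 222 of them coding in *Atxn7l3b*. *A830073O21Rik* (chr7:73737929-73741024, minus strand) and *Fam174b* (chr7:73740302-73776919, plus strand) also overlapped head to head, over 527 exonic bases of which 326 were coding in *Fam174b*. In 3 of the 4 pairs, then, the shared stretch was coding in the partner wholly or in part, and in the pair of *Fars2* it was untranslated.

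The sequences below show what *Gm11973* and *A830073O21Rik* carry where they lie opposite to coding sequence, since a read there fits either gene by its letters and differs only by its strand. The longest form of the first exon of *Gm11973* (chr11:6475425-6475709, GRCm38, plus strand, 285 bases) has in capitals the 233 bases present in all 3 annotated *Gm11973* transcripts, from 6475477.
Gm11973: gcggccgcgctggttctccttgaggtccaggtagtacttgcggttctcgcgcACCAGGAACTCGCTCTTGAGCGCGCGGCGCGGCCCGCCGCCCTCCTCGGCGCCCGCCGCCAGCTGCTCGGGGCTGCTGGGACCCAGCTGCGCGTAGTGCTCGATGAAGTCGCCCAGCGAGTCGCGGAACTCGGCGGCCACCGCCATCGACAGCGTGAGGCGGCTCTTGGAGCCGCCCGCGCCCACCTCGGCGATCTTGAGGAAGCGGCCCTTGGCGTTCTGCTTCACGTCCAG
The stretch of *A830073O21Rik* opposite to the first 300 coding bases of *Fam174b* (chr7:73740503-73740802, GRCm38, minus strand) has the bases opposite to the start codon in capitals.
A830073O21Rik: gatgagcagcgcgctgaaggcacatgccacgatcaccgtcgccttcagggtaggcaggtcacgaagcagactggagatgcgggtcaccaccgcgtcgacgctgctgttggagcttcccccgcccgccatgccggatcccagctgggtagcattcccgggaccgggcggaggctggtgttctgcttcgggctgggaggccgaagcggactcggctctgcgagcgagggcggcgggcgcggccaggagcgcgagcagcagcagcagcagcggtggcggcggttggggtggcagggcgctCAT
Both were found as reverse complements in annotated transcripts of *Purb* and *Fam174b*. The shared stretches were rich in G and C where they held coding sequence of the partner (71.2% for *Gm11973*, 64.7% for *Gm26596* and 71.0% for *A830073O21Rik*) and poorer in the pair of *Fars2* (43.7%), and they held 40, 51, 58 and 9 CpG dinucleotides.

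RefSeq promoter windows of 300 bases (250 before and 50 after the start, GRCm38.p6) were found for 4 of the 8 members, *Fars2*, *Purb*, *Atxn7l3b* and *Fam174b*. The window of *Fam174b* (chr7:73740057-73740356) lies within the exon of *A830073O21Rik*, so that row spans the promoter of its partner, and its first 250 bases (chr7:73740057-73740306, plus strand) are shown with matches to the GC box in capitals.
Fam174b promoter: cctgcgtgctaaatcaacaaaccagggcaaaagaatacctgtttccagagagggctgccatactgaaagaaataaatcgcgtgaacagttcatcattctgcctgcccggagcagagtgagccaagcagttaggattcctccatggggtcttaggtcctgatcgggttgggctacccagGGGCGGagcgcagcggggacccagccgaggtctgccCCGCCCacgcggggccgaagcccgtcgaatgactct
Each of the 4 windows held 2 or 3 matches to the GC box GGGCGG on either strand, a motif found in 35.7% of all 32851 windows. The window of *Purb* alone among the 4 held the cAMP response element TGACGTCA, with 1 match (1.79% of all windows), and its shorter core TGACG, with 4 matches that include those within the full element (20.8% of all windows). CCAAT and TATAAA were in none of the 4 (37.4% and 13.6% of all windows), and the E-box CANNTG was matched 2 times in *Atxn7l3b*, 1 time in *Fars2* and in neither other window (72.3% of all windows). GC content was 57.0% to 71.7% in these windows, above the median of 52.7% over all windows.

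*Fars2* counts were low, with a median of 6 counts per mouse (range 1 to 61). Values are given as CPM, counts scaled to library size with TMM factors, each as the lowest, median and highest of 8 mice. In *Tph2*+/+ mice, *Fars2* was at 5.27, 7.12 and 15.7 CPM in C and at 5.63, 21.2 and 72.95 CPM in MS. In *Tph2*+/- mice it was at 4.20, 16.03 and 40.4 CPM in C and at 1.26, 6.90 and 41.9 CPM in MS. In *Tph2*-/- mice it was at 3.49, 6.63 and 10.96 CPM in C and at 2.72, 10.5 and 20.2 CPM in MS. The groups overlapped in every genotype: 5 *Tph2*+/+ MS mice lay above all *Tph2*+/+ C mice while the other 3 lay among them, and in *Tph2*+/- MS mice 1 animal, replicate 8, stood far above the other 7.

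On the opposite strand, *Nrn1* had a median of 5.5 counts per mouse and did not pass the filter. Its raw counts were 3, 4.5 and 7 in *Tph2*+/+ C and 2, 4 and 10 in *Tph2*+/+ MS mice. They were 5, 7 and 13 in *Tph2*+/- C and 1, 4 and 11 in *Tph2*+/- MS mice. In *Tph2*-/- mice they were 3, 6.5 and 10 in C and 0, 5.5 and 9 in MS. All groups overlapped, and the highest median, in *Tph2*+/- C, differed from its neighbours by a few counts. Per kilobase of exon, *Fars2* was above *Nrn1* in 13 of 48 mice, with mean levels in a ratio of 0.717.

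*Gm11973* was the most variable of the first-named genes after *Fars2*, with a coefficient of variation of its CPM of 0.848 over the 48 mice (1.02 for *Fars2*). In *Tph2*+/+ mice it was at 32.4, 59.6 and 103.3 CPM in C and at 27.5, 114 and 407 CPM in MS. In *Tph2*+/- mice the values were 37.8, 141 and 374 CPM in C and 50.1, 86.6 and 253 CPM in MS. In *Tph2*-/- mice they were 22.1, 61.6 and 101 CPM in C and 31.25, 57.0 and 188.3 CPM in MS. The lowest mice of the 6 groups lay between 22.1 and 50.1 CPM. Beside their medians, the groups differed by how many mice rose above 150 CPM. These were replicates 2, 7 and 8 of *Tph2*+/+ MS, replicates 4, 6, 7 and 8 of *Tph2*+/- C, replicate 8 of *Tph2*+/- MS and replicates 2 and 5 of *Tph2*-/- MS.

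*Purb* stood at a level 47.6 times lower than *Gm11973* per kilobase of exon and was below it in all 48 mice. Its raw counts were 3, 13 and 24 in *Tph2*+/+ C, and 7, 14 and 25 in *Tph2*+/+ MS mice. They were 2, 15.5 and 31 in *Tph2*+/- C, and 10, 16 and 22 in *Tph2*+/- MS mice. In *Tph2*-/- mice they were 10, 20.5 and 24 in C, and 3, 13 and 23 in MS. All groups overlapped over most of their range, and *Tph2*-/- C had the highest median.

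*Gm26596* had the most counts of the 8 genes (175 to 683 per mouse) and the smallest coefficient of variation (0.258). It was at 347, 373 and 486 CPM in *Tph2*+/+ C, and at 326, 473 and 753 CPM in *Tph2*+/+ MS mice. *Tph2*+/- mice had 385, 474 and 709 CPM in C, and 347, 436 and 734 CPM in MS. *Tph2*-/- mice had 317, 367 and 471 CPM in C, and 329.5, 414 and 585 CPM in MS. The groups overlapped, and the highest mice of *Tph2*+/+ MS, *Tph2*+/- C and *Tph2*+/- MS were also among the highest for *Gm11973*. *Atxn7l3b* had 57 counts over all 48 mice, against 16612 for *Gm26596*, and was at 0 in 16 mice, where a count of 0 allows up to 3. Its medians were 0.5 in C and 1.5 in MS for *Tph2*+/+, 1 and 1 for *Tph2*+/-, and 1.5 and 0.5 for *Tph2*-/- mice, and its highest count in any mouse was 4. No difference of *Atxn7l3b* between groups was detectable at this depth.

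*A830073O21Rik* had 13 to 74 counts per mouse. It was at 20.7, 31.5 and 39.2 CPM in *Tph2*+/+ C, and at 26.2, 43.1 and 72.95 CPM in *Tph2*+/+ MS mice. *Tph2*+/- mice had 30.4, 38.9 and 61.4 CPM in C, and 24.4, 31.9 and 79.55 CPM in MS. *Tph2*-/- mice had 25.6, 31.3 and 46.6 CPM in C, and 22.3, 36.6 and 53.9 CPM in MS. The groups overlapped, and replicate 8 of *Tph2*+/- MS had the highest value of all mice in a group whose other 7 mice were at 38.9 CPM or less.

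*Fam174b* was the partner closest in level to its first-named gene apart from *Nrn1*, with a per-kilobase ratio of *A830073O21Rik* to *Fam174b* of 3.46. It was at 4.01, 9.47 and 15.5 CPM in *Tph2*+/+ C, and at 7.04, 11.8 and 22.7 CPM in *Tph2*+/+ MS mice. *Tph2*+/- mice had 6.47, 13.7 and 18.8 CPM in C, and 7.56, 10.1 and 20.9 CPM in MS. *Tph2*-/- mice had 5.81, 8.36 and 24.5 CPM in C, and 6.165, 12.3 and 18.4 CPM in MS. All 6 groups overlapped, and the order of their medians within each genotype was that of *A830073O21Rik*.

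**Figure D1:**
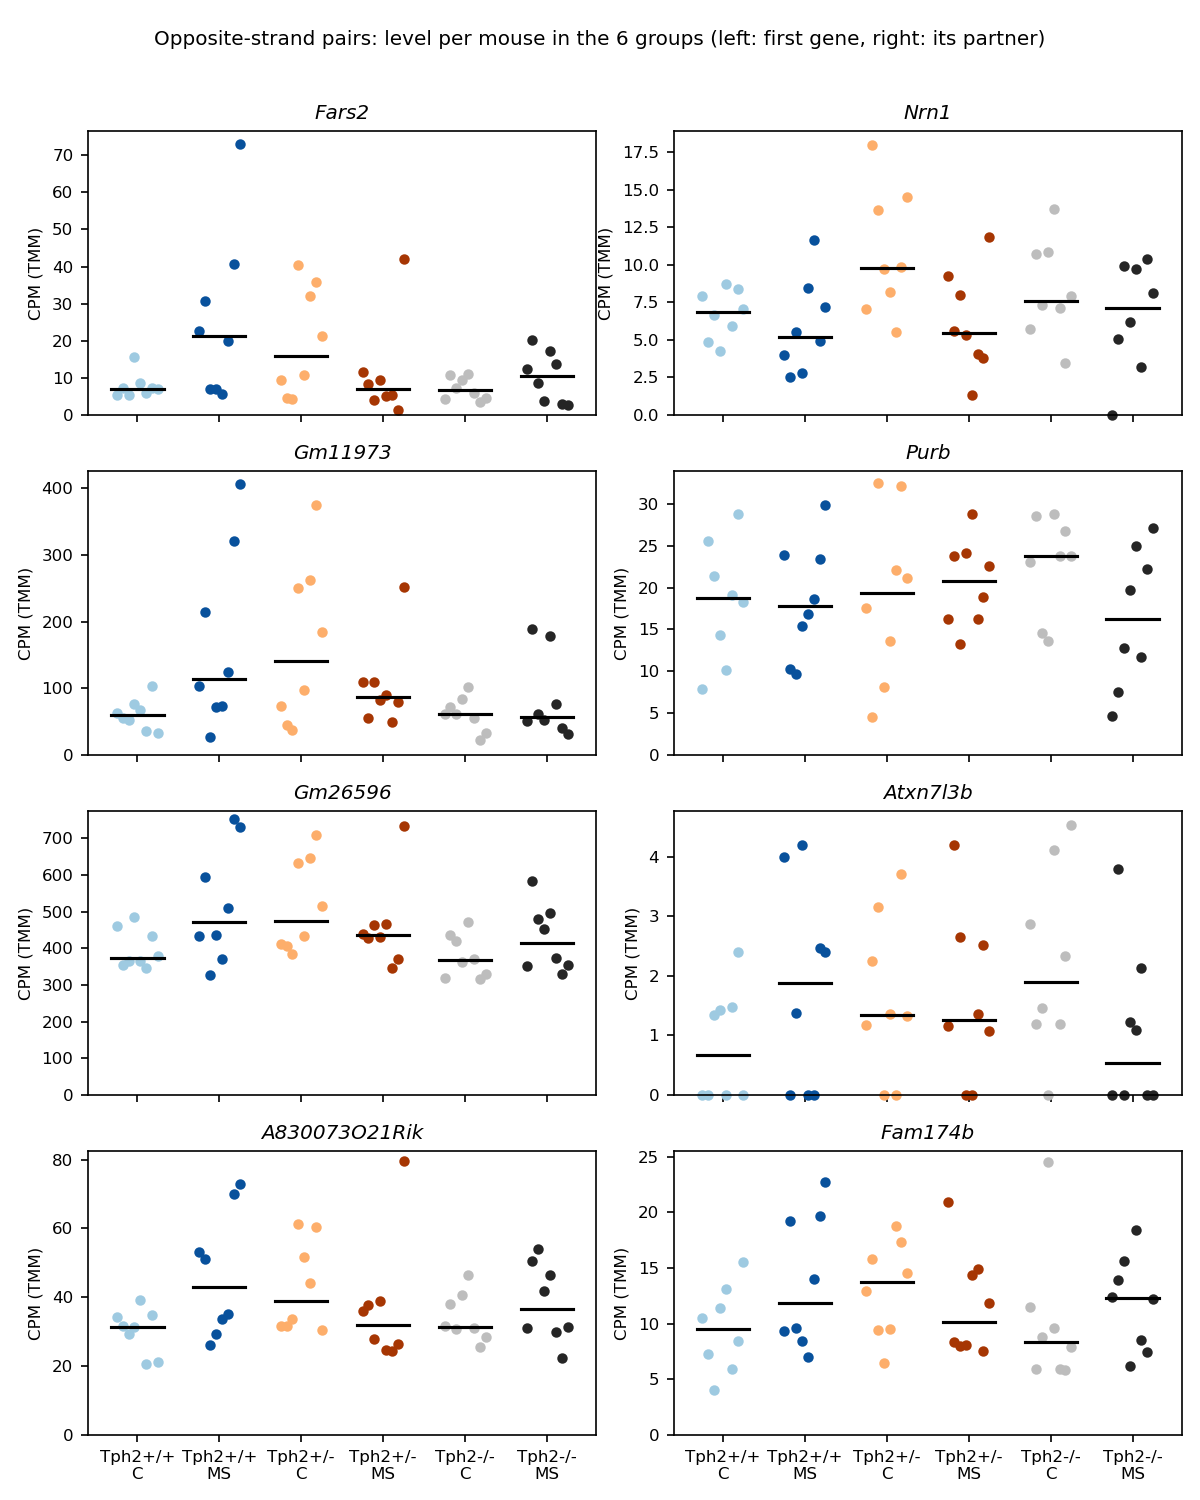
Level of each of the 8 genes in CPM (linear axis from 0, a separate scale per panel) in the 6 groups, with the first-named gene of a pair on the left and its partner on the right. Points are mice (8 per group) and bars group medians. In the left column the upper ends of *Tph2*+/+ MS, *Tph2*+/- C and *Tph2*+/- MS are carried by a few mice, such as the 1 *Tph2*+/- MS mouse at 253 CPM of *Gm11973*.

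The contrast that chose the genes is described by the fitted log2 fold changes (lg2FC) of edgeR, with standard errors and no test. MS in *Tph2*+/+ mice gave lg2FC of 1.72 (SE 0.49) for *Fars2*, 1.47 (SE 0.43) for *Gm11973*, 0.38 (SE 0.15) for *Gm26596* and 0.63 (SE 0.22) for *A830073O21Rik*. MS in *Tph2*+/- mice gave -0.79 (SE 0.47), -0.67 (SE 0.40), -0.17 (SE 0.15) and -0.20 (SE 0.22), in the same order. GE1 was accordingly -2.50 (SE 0.68), -2.14 (SE 0.58), -0.55 (SE 0.21) and -0.83 (SE 0.31), and GE2, the MS effect in *Tph2*-/- minus that in *Tph2*+/+ mice, was -1.15 (SE 0.77), -0.96 (SE 0.61), -0.20 (SE 0.21) and -0.44 (SE 0.32). For the partners that were tested, GE1 was 0.05 (SE 0.39) for *Purb* and -0.71 (SE 0.41) for *Fam174b*.

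*Fars2* and *Gm11973*, 2 of the 6 tested members, lay inside the limits used for a call (a nominal p under 0.01 with an absolute lg2FC over 0.2) in GE1, as did 2.96% of all 6781 genes tested. Since GE1 chose the genes, that count describes the choice and nothing is read from it. *Gm26596* and *A830073O21Rik* lay just outside the limit on p in this fit (nominal p under 0.01), and their side of it changed with the settings across the alternatives run. Single mice weighed on these values: leaving out replicate 8 of *Tph2*+/- MS took GE1 of *Fars2* to -3.29, and leaving out replicate 8 of *Tph2*+/+ MS took it to -2.06. For *Gm11973* the same left-out mice gave -2.46 and -1.80. The MS effect in *Tph2*+/- mice also moved: without replicate 8 of *Tph2*+/- MS it was -1.58 for *Fars2*, -1.004 for *Gm11973*, -0.29 for *Gm26596* and -0.47 for *A830073O21Rik*. Without replicate 7 of *Tph2*+/- C it was -0.38 for *Gm11973*, -0.09 for *Gm26596* and -0.11 for *A830073O21Rik*, and *Fars2* was at its closest to 0, -0.60, without replicate 4 of *Tph2*+/- C. Without the 7 late-numbered controls (the 7 C mice with the highest animal numbers) it was -0.55 for *Fars2*, -0.28 for *Gm11973*, -0.07 for *Gm26596* and -0.17 for *A830073O21Rik*. All MS mice have animal numbers between those of the other controls and of these 7. Rearing and place in the numbering therefore cannot be told apart in any contrast of MS with C.

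Rearing in *Tph2*-/- mice was a comparison of mice outside GE1. *Gm11973*, *Purb*, *Gm26596* and *A830073O21Rik* passed the filter on low counts in the *Tph2*-/- mice alone, and none of these 4 was called, beside 0.811% of all genes (55 of 6781). *Fars2* and *Fam174b* did not pass it there and entered the fit through mice of the other genotypes: 3 and 4 of the 16 *Tph2*-/- mice were above the filter's limit, compared with 11 and 12 of the other 32, so their values are given without a p. Over all genes, 0 kept a p under 0.05 after Benjamini-Hochberg adjustment in edgeR (348 did before adjustment). *Gm11973* had a lg2FC of 0.51 (SE 0.44, quasi-likelihood test of edgeR, Benjamini-Hochberg adjusted p = 0.90), and *Fars2* was at 0.57 (SE 0.57). *Gm26596* had 0.18 (SE 0.15, edgeR adjusted p = 0.90) and *A830073O21Rik* 0.18 (SE 0.22, edgeR adjusted p = 0.908). *Purb* differed in sign, at -0.48 (SE 0.27, edgeR adjusted p = 0.881), and *Fam174b* was at 0.27 (SE 0.30). The sizes depended on single mice: without replicate 2 of *Tph2*-/- MS the lg2FC was 0.35 for *Fars2*, 0.23 for *Gm11973* and 0.09 for *Gm26596*, and without replicate 3 of that group it was 0.09 for *A830073O21Rik*. *Fam174b* ran from 0.12 without replicate 5 of *Tph2*-/- MS to 0.58 without replicate 4 of *Tph2*-/- C. Without the 7 late-numbered controls the values were 0.26 for *Fars2*, 0.16 for *Gm11973*, 0.08 for *Gm26596*, 0.02 for *A830073O21Rik* and -0.03 for *Fam174b*.

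A two-sided exact permutation test of mean log2 CPM, 8 mice against 8, used no filter. For *Fars2* and *Fam174b* only the difference is given, for the reason stated above. The difference of MS minus C was -0.35 for *Nrn1* (exact p = 0.316) and -0.41 for *Atxn7l3b* (exact p = 0.114), and -0.53 for *Purb* (exact p = 0.0847). Among the first-named genes it was 0.26 for *Fars2*, 0.30 for *Gm11973* (exact p = 0.467), 0.17 for *Gm26596* (exact p = 0.221) and 0.13 for *A830073O21Rik* (exact p = 0.456). *Fam174b* had 0.25. None of the exact p given passed 0.05 without any adjustment, although 8 against 8 mice could have given 0.000155.

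**Figure D2:**
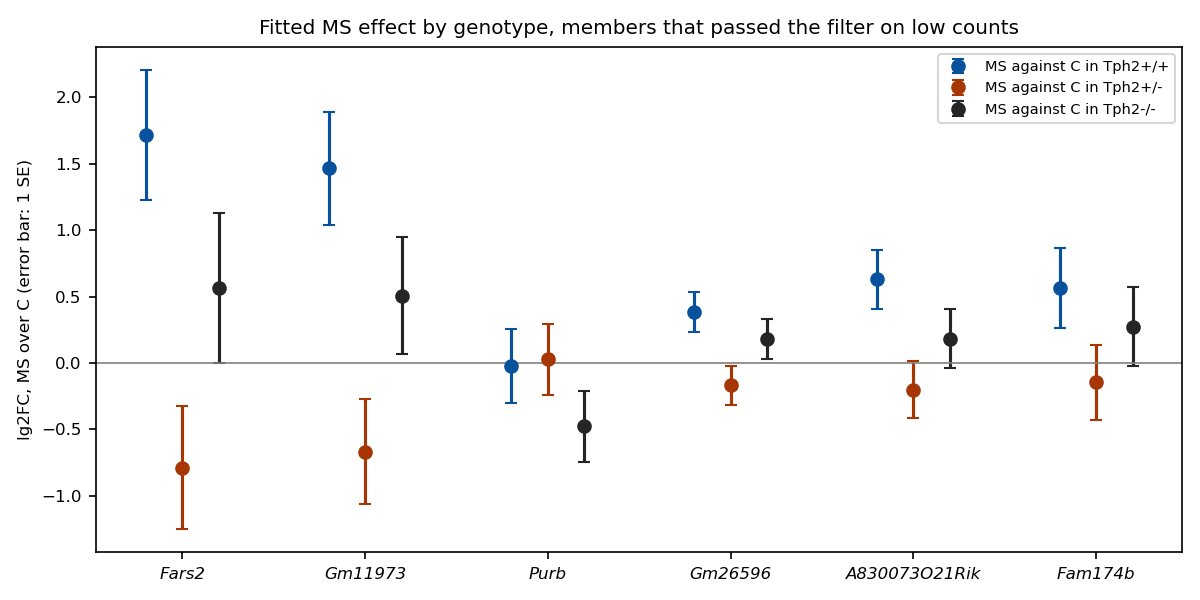
Fitted lg2FC of MS over C with 1 SE (vertical axis) for the 6 members that passed the filter, in *Tph2*+/+, *Tph2*+/- and *Tph2*-/- mice. *Fars2* and *Gm11973* stand at 1.72 and 1.47 in *Tph2*+/+ mice and at 0.57 and 0.51, close to 1 SE above 0, in *Tph2*-/- mice. *Purb* stays near 0 in *Tph2*+/+ and *Tph2*+/- mice.

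The highest values of the first-named genes came from the same few mice, which is given as a description, since 32 of the 48 mice chose these genes. Ranked by CPM over all mice, without removing group means, the 8 highest mice of each of the 4 genes came to only 11 animals, and 5 of them were among the highest 8 for all 4 genes. These were replicates 7 and 8 of *Tph2*+/+ MS, replicates 4 and 7 of *Tph2*+/- C and replicate 8 of *Tph2*+/- MS. A further 2, replicate 2 of *Tph2*+/+ MS and replicate 6 of *Tph2*+/- C, were among the highest for 3 genes. Of these 7 mice, 6 belonged to *Tph2*+/+ MS and *Tph2*+/- C, the groups in which the choosing contrast makes the genes high, so that the choice fixed this overlap in part. The partners differed in where they ranked these 7 mice. For *Fam174b* 5 of the 7 were also among its 8 highest, the exceptions being replicate 4 of *Tph2*+/- C at rank 42 and replicate 8 of *Tph2*+/- MS at rank 21. For *Purb* 2 of the 7 were, replicate 8 of *Tph2*+/+ MS and replicate 7 of *Tph2*+/- C, and the others ranked from 17 to 44. For *Nrn1* only replicate 8 of *Tph2*+/- MS was.

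Deviations of log2 CPM from the group mean leave out the differences between groups. Over the 48 mice, which include the 32 that chose the genes and are described without a test for that reason, Pearson's r between first-named genes ran from 0.757 (*Gm11973* with *A830073O21Rik*) to 0.884 (*Gm11973* with *Gm26596*). In the 16 *Tph2*-/- mice, which the choice did not use, r was 0.859 for *Gm26596* with *A830073O21Rik* (Spearman's rho 0.85, permutation p = 0.00029, adjusted over 10 relations 0.00145). It was 0.774 for *Gm11973* with *Gm26596* (rho 0.785, permutation p = 0.00097, adjusted 0.00323) and 0.716 for *Gm11973* with *A830073O21Rik* (rho 0.729, permutation p = 0.00393, adjusted 0.00982). *Fars2* did not pass the filter on low counts in these mice, with medians of 5 counts in C and 7 in MS. Its relations are therefore given without a p. The r of *Fars2* was 0.847 with *Gm11973* (rho 0.818), 0.65 with *Gm26596* (rho 0.679) and 0.592 with *A830073O21Rik* (rho 0.497). Without the 2 *Tph2*-/- mice farthest from the median of the first gene of each relation, r stayed positive in all 6 relations (0.383 to 0.819). The adjusted permutation p of r was still below 0.05 for *Gm11973* with *Gm26596* and for *Gm26596* with *A830073O21Rik*. For *Gm11973* with *A830073O21Rik* r was 0.623 (adjusted permutation p = 0.0809), while rho was 0.666 (adjusted permutation p = 0.0393). The r of *Fars2* was then 0.794 with *Gm11973*, 0.498 with *Gm26596* and 0.383 with *A830073O21Rik* (rho 0.468).

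**Figure D3:**
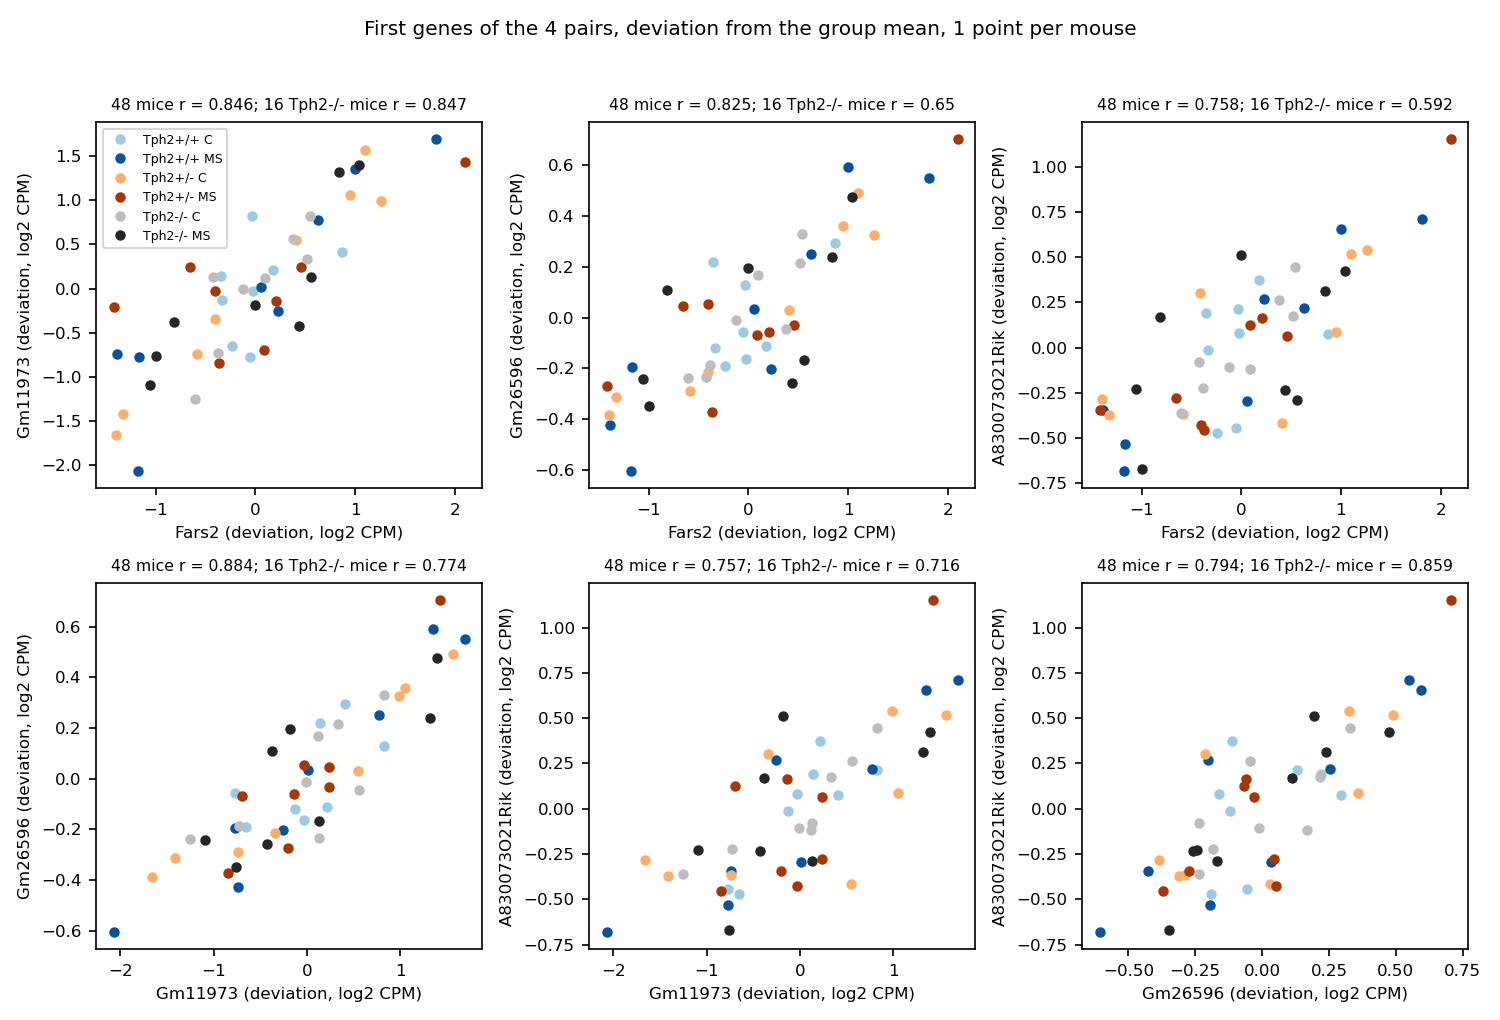
Deviation of log2 CPM from the group mean for each of the 6 combinations of the 4 first-named genes, 1 point per mouse, colored by group. Points of all 6 groups run along the rising diagonal, with r over 48 mice between 0.757 and 0.884 and over the 16 *Tph2*-/- mice between 0.592 and 0.859.

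The 2 strands of a pair were compared in the same way. Over the 48 mice, again described without a test, r was 0.0164 for *Fars2* with *Nrn1* (rho -0.0161), 0.136 for *Gm11973* with *Purb* (rho 0.0771), 0.0464 for *Gm26596* with *Atxn7l3b* (rho 0.0038) and 0.298 for *A830073O21Rik* with *Fam174b* (rho 0.302), each below the r between any of the first-named genes. *Fam174b* had a higher r with the first-named genes of the other pairs, 0.442 with *Fars2*, 0.42 with *Gm11973* and 0.379 with *Gm26596*. In the 16 *Tph2*-/- mice r was -0.0777 for *Fars2* with *Nrn1* (rho -0.0882) and -0.221 for *Gm11973* with *Purb* (rho -0.259, permutation p = 0.478, adjusted 0.531). It was 0.329 for *Gm26596* with *Atxn7l3b* (rho 0.388, permutation p = 0.232, adjusted 0.29) and 0.504 for *A830073O21Rik* with *Fam174b* (rho 0.556). The pairs of *Fars2* and *Fam174b* are given without a p, since these genes did not pass the filter in these mice. Neither other pair passed 0.05. Without the 2 *Tph2*-/- mice farthest from the median of the first-named gene, r was 0.217, 0.0237, -0.103 and 0.408 for the 4 pairs. The adjusted permutation p was then 0.943 for *Gm11973* with *Purb* and 0.805 for *Gm26596* with *Atxn7l3b*. The counting error of *Fars2*, *Nrn1* and *Atxn7l3b*, with medians of 6, 5.5 and 1 counts, limits how large an r these pairs could show.

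**Figure D4:**
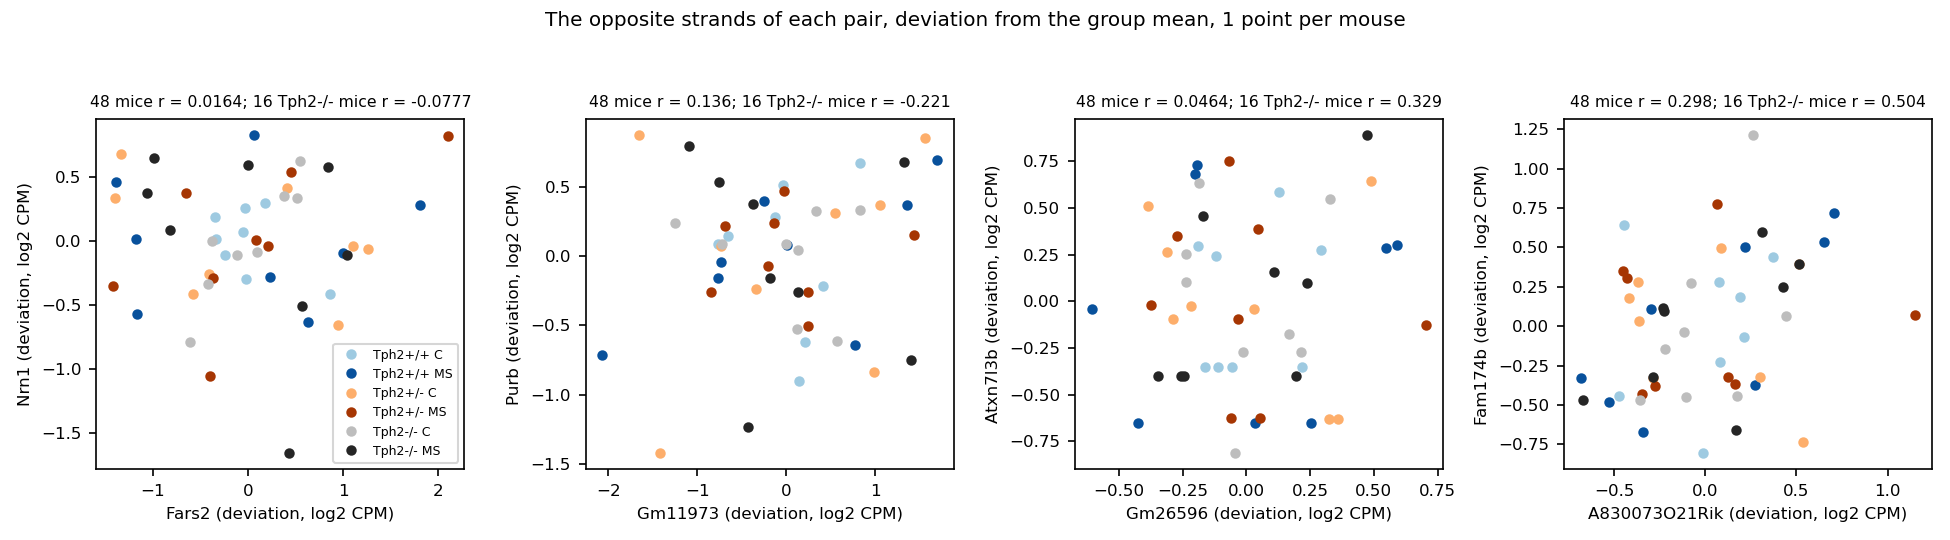
Deviation of log2 CPM from the group mean for the first-named gene (horizontal axis) and its opposite-strand partner (vertical axis) of each pair, 1 point per mouse, colored by group. The points of the first 3 panels show no slope (r of 0.0164, 0.136 and 0.0464 over 48 mice), and those of *A830073O21Rik* with *Fam174b* a weak one (r of 0.298).

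Measures of the libraries were set beside these levels. Among 24 relations of the 8 genes with the total counts on genes, the share of pairs on no gene and the *Gm42418* count, none had an adjusted permutation p below 0.05. For the first-named genes r lay between -0.147 and 0.2. *Purb* had the largest, an r of 0.469 with the share of pairs on no gene (rho 0.187, permutation p = 0.00542, adjusted 0.13), which was 0.163 without the 2 mice farthest from the median.

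The genes most like the first-named ones were sought by r of the same deviations over 48 mice, as a description: all points share library and depth, and genes of 1 mouse are not independent. *Fars2* was closest to *Cnbd2* (r = 0.90), *Gm9905*, *Basp1*, *Gm20512* and *1810049J17Rik* (0.873). *Gm11973* was closest to *D930007J09Rik* (0.928), *B930094E09Rik*, *1810049J17Rik*, *Cnbd2* and *Gm47307* (0.908). *Gm26596* had *C430014B12Rik* (0.932), *1810049J17Rik*, *D930007J09Rik*, *Gm11175* and *Tsen34* (0.921). *A830073O21Rik* had *Gm20512* (0.864), *Gm11175*, *1810012K08Rik*, *AI849053* and *Neu2* (0.805). These were 14 different genes, 5 of them close to more than 1 first-named gene, and 13 of the 14 have exons opposite to another gene, *Basp1* being the exception, as do 59.1% of all tested genes. Among the genes they lie opposite to are *Jund*, *Golph3*, *Tomm40* and *Mboat7*. Over all 6775 other tested genes the median r was -0.0139 for *Fars2* and -0.016 for *Gm11973*. An r above 0.6 was reached by 203 of them with *Fars2*, 227 with *Gm11973*, 271 with *Gm26596* and 205 with *A830073O21Rik*. Above 0.8 there were 34, 72, 86 and 6, so an r of this size was not particular to the first-named genes. How many other genes reach such values in the *Tph2*-/- mice alone was not examined.

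Genes with at least 200 exonic bases opposite to a protein-coding gene, the class of the 4 first-named genes and of *Nrn1*, numbered 2984. *Purb*, *Atxn7l3b* and *Fam174b* lie outside it, because the genes opposite to them are not annotated as protein-coding. Of these 72.4% passed the filter on low counts, compared with 8.05% of the genes with no such base. In the class 4.63% of tested genes were called in GE1, 97 of 100 of them lower, and without opposite bases 1.71%, 37 of 59 lower. Those shares depended on the mice used: they were 2.02% (41 of 44 lower) and 1.26% (22 of 45 lower) without the 7 late-numbered controls. With 1 mouse left out the share in the class ran from 3.31% (without replicate 7 of *Tph2*+/- C) to 7.09% (without replicate 8 of *Tph2*+/- MS), and over all tested genes from 2.16% to 4.30% without the same mice. For MS in *Tph2*-/- mice the shares called were 0.787% and 0.782%, but 0.184% and 0.658% without replicate 2 of *Tph2*-/- MS, 0.23% and 0.655% without replicate 1 of *Tph2*-/- C, 1.10% and 1.5% without replicate 7 of *Tph2*-/- MS, and 0.185% and 0.67% without the 4 libraries richest in *Gm42418*. Of the genes called for MS in *Tph2*-/- mice with all mice fitted, 3 of 17 were lower in the class and 22 of 27 without opposite bases. Leaving out replicate 2 of *Tph2*-/- MS made these 2 of 4 and 16 of 23. Median GE1 lg2FC over the class was -0.04, so most of its genes did not share the size of the 4 first-named ones.

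Relatives of the members showed little. Among the mitochondrial aminoacyl-tRNA synthetase genes, *Hars2*, *Iars2*, *Tars2* and *Yars2* passed the filter beside *Fars2*, and none of these 4 was called for MS in *Tph2*-/- mice or in GE1. *Hars2*, at a mean of 204 counts with 195 bases opposite to *Hars*, had a GE1 lg2FC of -0.03 (SE 0.14), and *Iars2*, at 328 counts, of -0.01 (SE 0.10). *Atxn7l3*, a subunit of the SAGA deubiquitinase, was the 1 of 6 relatives of *Atxn7l3b* that passed, with -0.19 (SE 0.37) in GE1 and 0.24 (SE 0.25) for MS in *Tph2*-/- mice. Relatives of *Nrn1*, *Purb* and *Fam174b* did not pass, and *Nrn1l* was at 0 in all mice. Of the 12 activity-regulated neuronal genes besides *Nrn1*, only *Junb*, a subunit of the AP-1 transcription factor, passed, at a mean of 296 counts with 173 exonic bases opposite to *Prdx2*, and its lg2FC were 0.07 (SE 0.12) in GE1 and 0.08 (SE 0.08) for MS in *Tph2*-/- mice.

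Cell type markers gave little purchase on the tissue. Of 8 neuronal markers 2 passed the filter, *Snap25* at a mean of 8.50 counts and *Syt1* at 14.9. None of the 8 amygdala markers or the 4 endothelial ones passed, and *Sst* was at 0 in 39 and *Npy* in 38 mice. Astrocyte, oligodendrocyte, microglia and choroid plexus lists had 2 of 5, 4 of 5, 3 of 5 and 1 of 4 tested, and no marker was called in GE1 or for MS in *Tph2*-/- mice. Summed neuronal markers ranged from 22.6 to 95.3 CPM over all mice, oligodendrocyte markers, which *Cnp* dominated, from 503 to 739 CPM, and amygdala markers from 2.32 to 21.9 CPM, with overlapping ranges in the 6 groups. The summed neuronal markers had a median of 72.3 CPM in *Tph2*-/- C (range 44.9 to 95.3) and 44.4 CPM in *Tph2*-/- MS mice (26.4 to 81.6), beside 40.7 to 49.9 CPM in the other 4 groups. Summed astrocyte markers moved the same way, with medians of 101 and 75.2 CPM, beside 78.6 to 85.3 CPM in the other 4 groups. Summed oligodendrocyte markers (609 and 608 CPM) and microglia markers (252 and 262 CPM) did not. For MS in *Tph2*-/- mice the lg2FC was -0.43 (SE 0.33) for *Snap25* and -0.45 (SE 0.27) for *Syt1*, the direction of *Purb* (-0.48), and neither had an adjusted p under 0.05 in edgeR (0.895 and 0.881). In bulk tissue, fewer cells of a type and less RNA per cell cannot be told apart, and the part of cell composition in the members' levels was not tested.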

How the data were processed

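Amygdala RNA of 48 mice was analysed from 1 table of raw counts per gene. The authors made the deposited counts from paired-end reads; the submitters' processing notes name STAR, HTSeq and DESeq2 and the build GRCm38.p5, while the annotation and the strand setting are not given in the sources used here. Rows that name no gene stayed out of library sizes and tests; those for pairs on no gene held 75.9% to 97.6% of a mouse's unambiguous unique pairs. All 48 columns of the table were matched to samples by name.

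Following the paper's methods, *Lars2* was removed, and genes were kept with filterByExpr of edgeR 4.0.16 (R 4.3.3; 6781 genes). TMM factors, a quasi-likelihood F test with 1 coefficient per group over all 48 mice, and Benjamini-Hochberg adjustment over all tested genes followed. A call needed a nominal p under 0.01 with an absolute lg2FC over 0.2, as in the paper. Level differences and covariation used log2 CPM with a prior count of 2, exact permutation of 8 against 8 mice, and 100000 permutations within groups for r and rho, adjusted over 10 relations (24 for library measures), whose smallest possible p is 1e-05. DESeq2 1.42.0 served as an alternative. Overlaps and positions came from GENCODE M21, where 48058 of 48440 genes were found, and sequences from its transcripts and the RefSeq promoter table. Scripts were tested on simulated data. Within a group, no 2 libraries agreed within sampling noise (lowest chi-square per degree of freedom 1.42 over 168 comparisons).

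The members, lists and tests were chosen with earlier results of these data known. The genes named are the 8 members, the 5 genes with the highest r to each first-named gene, the listed relatives and cell type markers that passed the filter, and *Tph2*, *Lars2* and *Gm42418*; other genes named (markers at 0, genes opposite to those of like pattern) were chosen after their values were seen. Alternatives covered the filter, the scaling, robust estimation, DESeq2, 4 libraries with more than 500000 counts on *Gm42418*, 7 controls with animal numbers from 272, a replicate block, the groups fitted and, chosen after seeing the data, leaving out each mouse and 2 of the 16 *Tph2*-/- mice. Some listed items are not reported here.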

Additional observations from a re-analysis of the deposited data

Results flagged for a closer look

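In 6 of 48 sets of 8 mice (8 genes in 6 groups) the highest mouse stood apart from the others by more than Dixon's 95% limit, where chance alone flags about 1 in 20 sets. Replicate 8 of *Tph2*+/- MS was such a mouse for all 4 first-named genes, at 41.9 CPM of *Fars2* (next 11.6), 252.6 CPM of *Gm11973* (next 109), 734 CPM of *Gm26596* (next 467) and 79.55 CPM of *A830073O21Rik* (next 38.9), and for none of the 4 partners. The 4 values come from 1 library and are not independent of each other. Replicate 4 of *Tph2*+/+ C stood apart for *Fars2*, at 15.7 CPM (next 8.72). Replicate 4 of *Tph2*-/- C stood apart for *Fam174b*, at 24.5 CPM (next 11.5).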

How the results depend on the processing

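The number of genes called for MS in *Tph2*-/- mice (55) was 131 with a mean of at least 1 count, 309 with all genes that had a count, 83 with DESeq2 without a prior and 34 without the 4 libraries richest in *Gm42418*; the other settings stayed within 1.5 times, and leaving out 1 mouse gave 32 (replicate 2 of *Tph2*-/- MS) to 98 (replicate 7 of the same group), with 35 without replicate 1 of *Tph2*-/- C. No member was called in these fits except *Gm11973* when all genes with a count were fitted (lg2FC 0.50, SE 0.13), and *Fam174b* reversed to -0.028 without the 7 late-numbered controls; *Fars2* and *Fam174b* have no value with only the *Tph2*-/- groups fitted. In GE1, leaving out 1 mouse gave -3.29 to -2.06 for *Fars2*. The cause of these shifts was not tested. The 6 relations between first-named genes kept their sign in all settings: 5 passed in the 16 *Tph2*-/- mice (*Fars2* with *A830073O21Rik* at 0.592 did not) and 3 without 2 of these, where *Fars2* with *Gm26596* (0.498), *Fars2* with *A830073O21Rik* (0.383) and *Gm11973* with *A830073O21Rik* (0.623) did not. Between strands, raw counts gave 0.146, 0.336, 0.203 and 0.433 for the pairs of *Fars2*, *Gm11973*, *Gm26596* and *A830073O21Rik*; raw counts also carry depth. Signs turned for *Fars2* with *Nrn1* (-0.0319 without the late-numbered controls, -0.0777 in *Tph2*-/- mice, -0.139 without the 2 farthest mice), *Gm11973* with *Purb* (-0.221 in *Tph2*-/- mice) and *Gm26596* with *Atxn7l3b* (-0.103 in *Tph2*-/- mice without 2). 

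With a replicate block, 59 genes were called for MS in *Tph2*-/- mice, no member among them, and no r changed its sign, while rho turned from -0.0161 to 0.0248 for *Fars2* with *Nrn1* and from 0.0771 to -0.00315 for *Gm11973* with *Purb*. Sign flips within replicate numbers gave exact p = 0.00781 for *Gm26596* (0.221 unpaired), the smallest such p over 256 sign patterns, with MS above C in 8 of 8 numbered pairs. Replicate numbers follow the order of the animal numbers within each group, and the labels name nothing else that equal numbers share. Only 2 of the 8 same-numbered *Tph2*-/- pairs deviated together with r above 0.1 (median 0.0786), so the numbers were not taken to pair mice. Depth limits *Nrn1* and *Atxn7l3b* most, at medians of 5.5 and 1 counts.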
